A study of Mus musculus with 18 samples.

Results

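Naive CD4+ T cells lacking LAT were compared with WT cells over 12 of the 18 arrays of the study, 6 per genotype, with the times of 1 and 4 weeks of tamoxifen pooled. The arrays were chosen by their titles alone. The comparison covered the autosomal genes: 16550 had a probe with a gene name and 16407 of them passed a detection filter, among 32302 genes and unnamed sequences tested in all. Each array held RNA of CD44low CD4+ T cells sorted from the spleen of a C57BL/6 mouse, 3 mice per genotype and time. In both genotypes replicates 1 and 2 of 1 week were labelled female, and replicate 3 of 1 week and every 4-week mouse male. By the titles, LAT KO mice were ERCre+ LAT f/- and WT mice were ERCre- LAT f/-. Both genotypes thus carried 1 floxed and 1 null Lat allele and both received tamoxifen, whereas the series text describes every group as Cre-positive. If the titles hold, an effect of the activated Cre and the loss of LAT cannot be told apart. The labels give no age, and the Cre is named without a promoter, so deletion may have reached cells other than T cells.

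LAT is a membrane adaptor. When the T cell receptor (TCR) is engaged, the kinase ZAP-70 phosphorylates LAT, which then gathers phospholipase C-gamma, Grb2 and Gads and so feeds the calcium, Ras-ERK and protein kinase C branches. Resting T cells receive weak TCR signals from self-peptide on MHC, called tonic signals, and genes of the EGR and NR4A families are known to be induced by such input. The comparison asks which transcripts of unstimulated naive cells depend on LAT.

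Sex-linked transcripts contradicted the label of 2 LAT KO arrays. Replicate 1 of 1 week was labelled female but had a scaled log2 Xist signal of -9.30 and a mean of -0.71 over 4 Y-linked genes. Replicate 2 of 4 weeks was labelled male but had 0.21 for Xist and -7.68 for the Y-linked genes. Among the arrays with male levels of the Y-linked genes, LAT KO and WT replicate 3 of 1 week, both on slide 1, had Xist at -3.74 and -3.98, above the other male arrays at -9.30 to -7.03. If the 2 contradicted mice had been swapped between 1 and 4 weeks, the pooled comparison would be the same, because both are LAT KO. LAT KO replicate 3 of 1 week also stood apart, with 7888 spots marked as outliers against 189 to 952 on the other 11 arrays. The 75th percentile of spot intensity, which sets 0 on the scaled log2 scale used for every level here, ranged from 1124 to 1648, and 84.2% to 97.9% of spots were well above background. All 12 CD4 T cell markers were well above background on all 12 arrays, and 0 spots were saturated.

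The signal of Lat, the targeted gene, was lower on average in LAT KO but did not separate the groups. Its scaled log2 signal in the LAT KO arrays was 2.32, 2.73, 3.16, 2.62 and 2.34, with the spot of replicate 2 of 1 week left out as an outlier. In the WT arrays it was 2.75, 3.47, 3.37, 3.29, 3.62 and 3.85. The groups overlapped through 1 array each, the WT array at 2.75 and the LAT KO array at 3.16. The means were 2.63 ± 0.34 (SD, n = 5) in LAT KO and 3.39 ± 0.37 (SD, n = 6) in WT, a difference of -0.76 with a standard error (SE) of 0.20. Limma, fitted over all features with Benjamini-Hochberg adjustment, gave an adjusted p of 0.304. A two-sided exact permutation test on this gene alone gave p = 0.0108. With the outlier spot kept (3.19) the difference was -0.66 and the exact permutation p was 0.0130. Where this probe lies relative to the floxed part of Lat was not tested, so the residual signal is not a measure of deletion.

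Of the 16407 autosomal genes, limma called 37 at an adjusted p under 0.05, which is 0.226%. In LAT KO cells 17 rose (0.104%) and 20 fell (0.122%), and 8 of the rises and 12 of the falls reached 2-fold. Of the 20 falls 10 were on a list of TCR-induced immediate early genes, and of the 17 rises 8 were on a list of interferon-stimulated genes. Of the 37 genes 16 were on no list. The lists were chosen with earlier results of these data known. In all 37, every measured LAT KO array lay on one side of every WT array. Such a separation was seen for 143 autosomal genes (0.872%) in all, 69 (0.421%) higher and 74 (0.451%) lower in LAT KO. Across all 32302 features 48 were called (0.149%), the remainder being 10 unnamed sequences and the X-linked Syp. Of all autosomal genes 34.2% had a positive difference, and the median over all features was -0.09. This median depended on the processing and the arrays: it was -0.01 in the deposited log2 values, -0.02 without the 2 arrays of contradicted sex label, -0.04 without LAT KO replicate 1 of 1 week, -0.16 without WT replicate 1 of 1 week and -0.14 with slide as a fixed block.

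The number of calls depended on the arrays included. 3 slides held both genotypes (2 LAT KO arrays and 1 WT array each) and the others WT alone. With slide as a fixed block 6 genes were called, 1 rise and 5 falls. Without the 2 arrays of contradicted sex label 6 falls and 0 rises were called. Leaving out a single array gave 10 calls without LAT KO replicate 2 of 1 week, 10 without LAT KO replicate 2 of 4 weeks, 14 without replicate 1 and 22 without replicate 3 of the latter group. It gave 17 without WT replicate 1 of 4 weeks and 13 without WT replicate 2 of 4 weeks. Egr1, Egr2, Egr3, Irf4 and Nr4a1 passed in all 33 alternative analyses. The median size of the 17 rises moved from 0.97 to 0.98 under the slide block and to 0.93 without the 2 arrays, and that of the 20 falls from -1.30 to -1.21 and -1.28. Within the 3 slides that held both genotypes it was 0.65, 1.39 and 1.05 for the rises and -1.29, -1.03 and -1.32 for the falls. The genes were called on these same arrays, which largely fixes these sizes, so they are descriptions and not separate support.

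**Figure D1:**
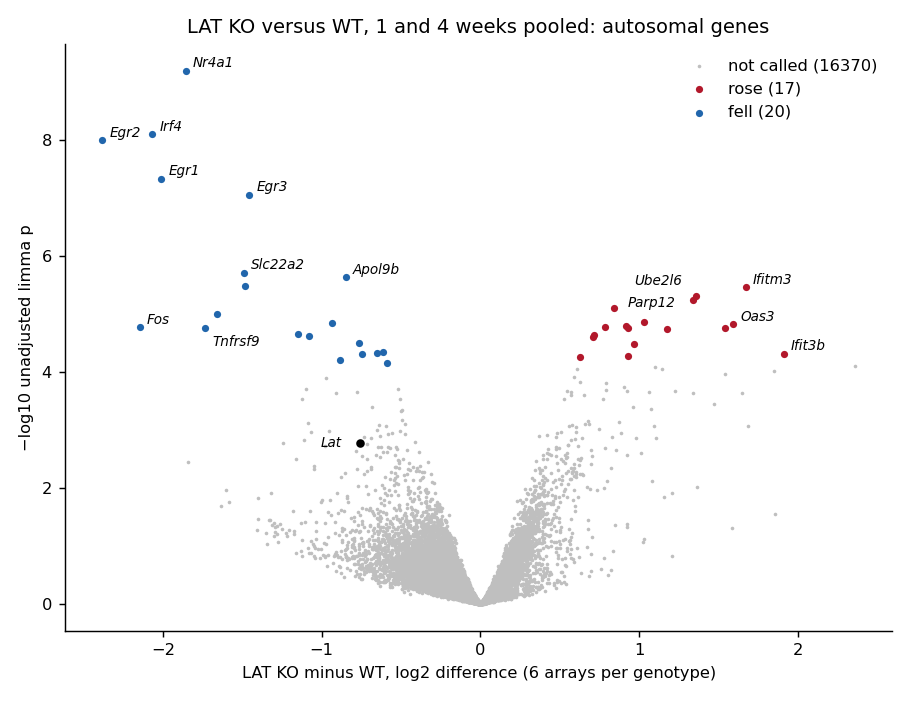
Log2 difference between LAT KO and WT (x axis, 6 arrays per genotype) against −log10 of the unadjusted limma p (y axis) for 16407 autosomal genes. Red points are the 17 called rises, blue points the 20 called falls and grey points the genes not called. Nr4a1, Irf4, Egr2, Egr1 and Egr3 stand highest, and Lat (black) lies among the genes not called.

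Egr2, of the EGR family of zinc-finger factors, gave the largest fall, and its relatives fell with it. Egr2 ranged from -1.64 to -0.35 over the 6 LAT KO arrays, with a median of -0.84, and from 1.05 to 1.87 in WT, with a median of 1.48. The gap between the groups was wider than the spread within either. The difference was -2.38 (SE 0.21, limma adjusted p = 1.09e-04), a 5.21-fold lower level. Egr1 ranged from -1.43 to -0.20 in LAT KO (median -0.74) and from 0.84 to 1.48 in WT (median 1.16), and fell by 2.01 on the log2 scale (SE 0.20, limma adjusted p = 3.78e-04). Egr3 ranged from -3.60 to -3.03 in LAT KO (median -3.38) and from -2.17 to -1.55 in WT (median -1.89), and fell by 1.46 (SE 0.15, limma adjusted p = 4.75e-04). In Egr1 and Egr2, LAT KO replicate 1 of 1 week was the highest of its group, yet it stayed below every WT array. Nab2, a corepressor that binds EGR proteins and is itself an EGR target, fell by 1.15 (SE 0.19, limma adjusted p = 0.0235), with LAT KO arrays from -4.69 to -3.91 and WT arrays from -3.32 to -2.79.

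Egr genes are classical targets of serum response factor, which is activated downstream of ERK and binds a motif known as the CArG box. RefSeq promoter entries (build GRCm38.p6) were found for 29 of the 37 called genes. In the 250 bases before the gene start, searched on both strands, a CArG box occurred in 188 of 13085 autosomal genes tested (1.44%), in 0 of the 13 rises with an entry and in 1 of the 16 falls, Egr2. The stretch with the match before the upstream Egr2 start, on the plus strand at chr10:67537449-67537548, is shown because Egr2 fell most, with the CArG box in capitals.
Egr2: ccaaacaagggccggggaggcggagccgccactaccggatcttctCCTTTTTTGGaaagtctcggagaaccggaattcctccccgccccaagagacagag
Other Egr2 starts had a different CArG box, in the stretch chr10:67537752-67537851 (plus). A match describes the letters only and is not a measure of binding. The full cyclic AMP response element TGACGTCA, present in 326 promoters (2.49%), occurred in 0 rises and 0 falls.

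Of the NR4A orphan nuclear receptors, Nr4a1, also called Nur77 and widely used as a reporter of TCR signalling, had the smallest p of all autosomal genes. Its 6 LAT KO arrays lay close together, from -2.30 to -1.97 with a median of -2.21, and the WT arrays from -0.69 to -0.03 with a median of -0.28. Nr4a1 thus fell by 1.86 (SE 0.13, limma adjusted p = 2.05e-05), a 3.62-fold lower level. Nr4a3 ranged from -6.24 to -5.32 in LAT KO (median -5.45) and from -4.44 to -3.61 in WT (median -3.97). It fell by 1.66 (SE 0.25, limma adjusted p = 0.0180) and was well above background on 5 of 6 LAT KO arrays, so the size of its fall is less certain. Irf4, a factor whose level in T cells follows the strength of TCR input, ranged from -2.65 to -1.55 in LAT KO (median -2.01) and from -0.39 to 0.32 in WT (median 0.02). The groups were separated by more than 1 log2 unit, and Irf4 fell by 2.07 (SE 0.18, limma adjusted p = 1.09e-04). Fos, a subunit of AP-1, ranged from -7.25 to -5.35 in LAT KO (median -6.27) and from -4.65 to -3.52 in WT (median -4.04). It fell by 2.15 (SE 0.34, limma adjusted p = 0.0208), with 5 of 6 LAT KO arrays well above background.

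Falls in genes for surface proteins included Tnfrsf9, Cd83 and Gpr83. Tnfrsf9, the costimulatory receptor 4-1BB, ranged from -2.39 to -0.47 in LAT KO (median -1.63) and from -0.16 to 0.79 in WT (median 0.06), and fell by 1.74 (SE 0.28, limma adjusted p = 0.0208). The array at -0.47 was again LAT KO replicate 1 of 1 week, 0.75 above the next LAT KO array. Cd83, induced on activation, fell by 1.08 (SE 0.18, limma adjusted p = 0.0235), and here the groups came near to each other, at 0.07 and 0.15. Gpr83, a receptor enriched in regulatory T cells, fell by 0.89 (SE 0.16, limma adjusted p = 0.0429).

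2 inhibitors of the pathway itself were among the smaller falls. Dusp6, a phosphatase that inactivates ERK, went from 2.46 ± 0.25 (SD, n = 6) in WT to 1.69 ± 0.19 (SD, n = 6) in LAT KO, and Ptpn6, which encodes the phosphatase SHP-1, from 2.20 ± 0.15 to 1.59 ± 0.17. Their differences of -0.77 and -0.61 had limma adjusted p of 0.0287 and 0.0367. A second probe of Ptpn6 differed in the same direction.

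Other falls belong to no T cell pathway list. Slc22a2, an organic cation transporter, fell by 1.49 (SE 0.20, limma adjusted p = 0.00886), with LAT KO arrays from -4.88 to -4.04 and WT arrays from -3.25 to -2.56. Wnt10a, a WNT ligand, fell by 1.48 (SE 0.21, limma adjusted p = 0.00922), with ranges of -4.44 to -3.97 and -3.24 to -2.13. Both genes passed in 30 of the 33 alternative analyses. Sh3gl3, an endophilin, fell by 0.94 (SE 0.15) and Apol9b, of the apolipoprotein L family, by 0.85 (SE 0.11, limma adjusted p = 0.00891). Apol9b rests on 5 LAT KO arrays, as the spot of replicate 3 of 1 week was left out (2.91 if kept, inside the LAT KO range), and its near-identical copy Apol9a may share the probe's signal. Itih5, Igf2r and Rgs10 completed the falls, with differences of -0.74, -0.65 and -0.59.

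**Figure D2:**
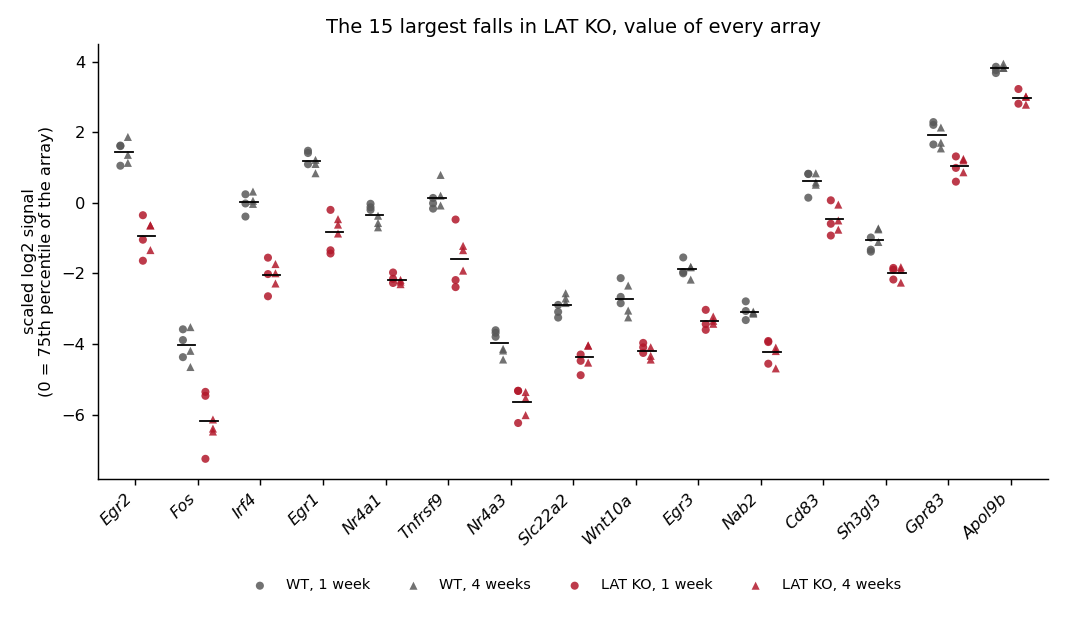
Scaled log2 signal (y axis, 0 is the 75th percentile of the array) of the 15 largest falls (x axis) in every WT array (grey) and LAT KO array (red); circles are 1 week, triangles 4 weeks and lines the group means. No LAT KO point reaches the WT points of the same gene.

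Of the 17 rises 8 were on the list of genes induced by type I interferon. Many promoters of such genes carry a motif called the interferon-stimulated response element (ISRE), and the induced proteins restrict viruses. Its core, taken as GAAA, any 2 bases and GAAA again, and searched on both strands over the same 250 bases with overlapping matches counted, occurred in 456 of the 13085 promoters (3.48%). It occurred in 3 of the 13 rises with an entry, Ifit3b, Oas3 and Ifit1bl1, and in 1 of the 16 falls, Apol9b. These 3 stretches, from RefSeq on GRCm38.p6, show the motif in capitals, on either strand, at chr19:34607758-34607857 (plus), chr5:120777680-120777779 (minus) and chr19:34602018-34602117 (minus).
Ifit3b: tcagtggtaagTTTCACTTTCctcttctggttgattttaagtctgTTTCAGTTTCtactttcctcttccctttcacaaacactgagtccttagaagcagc
Oas3: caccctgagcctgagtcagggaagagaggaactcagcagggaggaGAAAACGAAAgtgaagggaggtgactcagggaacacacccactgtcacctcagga
Ifit1bl1: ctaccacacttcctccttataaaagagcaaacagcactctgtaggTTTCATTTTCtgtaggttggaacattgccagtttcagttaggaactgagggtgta
In the stretches shown, Ifit3b held the core at 2 places and the others at 1. Before Apol9b, which fell, the core also occurred at 2 places, which overlap. Another Ifit1bl1 start also had 1 match, at chr19:34599428-34599527 (minus). The remaining 10 rises with an entry did not hold these letters in this window.

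Ifit3b, an antiviral tetratricopeptide protein that was not on the list, gave the largest called rise. Its LAT KO arrays ranged from 1.13 to 2.57 (median 1.77) and its WT arrays from -1.30 to 1.01 (median 0.01). The WT spread was wide and the nearest arrays of the groups lay only 0.12 apart. The difference was 1.91 (SE 0.34, limma adjusted p = 0.0367), and because Ifit3 and Ifit3b are near-identical copies the signal may come from either. Ifitm3, which blocks virus entry, ranged from 1.78 to 2.82 in LAT KO (median 2.27) and from -0.17 to 1.25 in WT (median 0.59), a rise of 1.67 (SE 0.23, limma adjusted p = 0.00922). Oas3, an oligoadenylate synthetase that activates RNase L, ranged from 3.28 to 3.95 in LAT KO (median 3.50) and from 0.99 to 2.93 in WT (median 1.94), a rise of 1.59 (SE 0.25, limma adjusted p = 0.0208). Irf7, the factor that amplifies type I interferon production, ranged from 2.74 to 3.47 in LAT KO (median 2.90) and from 0.48 to 2.35 in WT (median 1.39), a rise of 1.54 (SE 0.25, limma adjusted p = 0.0208). In Oas3 and Irf7 the WT arrays were more spread than the LAT KO arrays, with SDs of 0.68 and 0.66 against 0.23 and 0.26. The highest WT array of Ifit3b, Oas3 and Irf7 was replicate 3 of 1 week, and the lowest was replicate 3 of 4 weeks.

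Smaller rises included further enzymes. Ube2l6, the conjugating enzyme for the ubiquitin-like ISG15, rose by 1.36 (SE 0.20, limma adjusted p = 0.0119), with LAT KO arrays from 0.89 to 1.98 and WT arrays from -0.46 to 0.58. Parp12, a mono-ADP-ribosyltransferase, rose by 1.34 (SE 0.20, limma adjusted p = 0.0123), with ranges of -1.12 to -0.60 and -2.92 to -1.65. Isg20, an exonuclease, rose by 1.18, and Trafd1, a dampener of innate signalling, by 1.03, though in both the WT array of replicate 3 of 1 week lay within 0.06 of the lowest LAT KO array. Znfx1, a helicase that senses RNA, Tor3a, a torsin ATPase, and Ifit1bl1 rose by 0.93, 0.92 and 0.84. Oas1f, a further oligoadenylate synthetase gene with near-identical copies, rose by 0.62. Parp12, Isg20, Znfx1 and Tor3a were on the interferon-stimulated list, and Ube2l6, Trafd1, Ifit1bl1 and Oas1f were not. Second probes of Oas3, Isg20, Trafd1 and Ifit1bl1 differed in the same direction.

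Slc16a5, a monocarboxylate transporter family member, rose by 0.97 (SE 0.17, limma adjusted p = 0.0290), and Slco3a1, an organic anion transporter, by 0.93 (SE 0.15, limma adjusted p = 0.0208). Slc16a5 was the only rise called with slide as a fixed block. Its LAT KO arrays ranged from 0.01 to 0.68 and its WT arrays from -1.06 to -0.09. Ly6c1, a surface antigen on the interferon-stimulated list that is nearly identical to Ly6c2, rose by 0.79. Tcstv3, known from early embryos, and Clic4, a chloride intracellular channel protein, rose by 0.72 and 0.71.

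**Figure D3:**
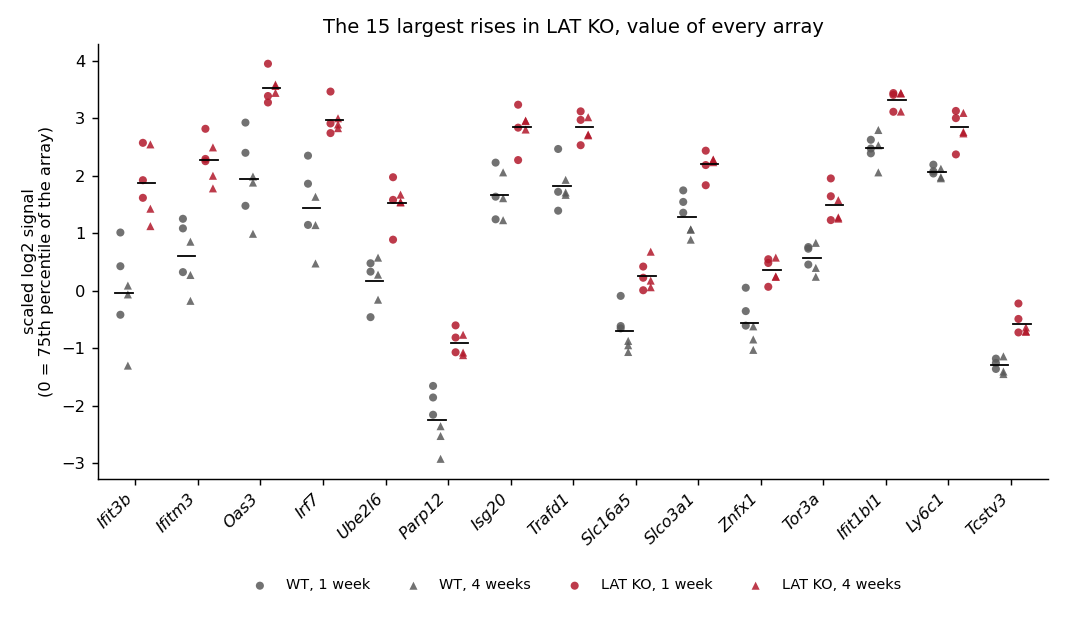
Scaled log2 signal (y axis, 0 is the 75th percentile of the array) of the 15 largest rises (x axis) in every WT array (grey) and LAT KO array (red); circles are 1 week, triangles 4 weeks and lines the group means. All LAT KO points lie above the WT points of the same gene, and the WT points of Irf7, Oas3 and Ifit3b are more spread than their LAT KO points.

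Gene lists for T cell biology were then described by counts and medians. As they were chosen with earlier results of these data known, their counts are descriptions and not independent support. Of 58 autosomal interferon-stimulated genes tested, 8 rose, 0 fell and 50 were not called. With slide as a fixed block, and without the 2 arrays of contradicted sex label, 0 of them were called, while the median of the list was 0.74 and 0.68. Without LAT KO replicate 2 of either time 1 was called. Leaving out replicate 1 of the 4-week LAT KO mice gave 3 calls, WT replicates 1 and 2 of 4 weeks 4 and 2, and WT replicate 3 of 1 week 13, whereas the other single arrays gave 6 to 9. The differences of the 58 genes were positive for 56, beside 34.2% of all autosomal genes, with a median of 0.69 against -0.09 over all features. In 31 of the 58 every LAT KO array lay above every WT array, beside 0.421% of all autosomal genes. Several members just missed the threshold: Stat2 had a limma adjusted p of 0.0526, Isg15 a difference of 1.15 with 0.0541, Oasl2 of 1.85 with 0.0558 and Rsad2 of 1.54 with 0.0599. The mean deviation of the list from its 12-array mean was 0.18 to 0.70 in LAT KO arrays and -0.90 to -0.02 in WT arrays. The groups did not overlap, and LAT KO replicate 3 and WT replicate 3 of 1 week, both on 1 slide, were nearest to each other. Within the 3 slides that held both genotypes the list's median was 0.36, 1.02 and 0.65.

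The rise did not extend to every interferon list. Of 26 autosomal genes for interferons, their receptors and sensors, 0 were called and the median was 0.02. Usp18, which is also on the interferon-stimulated list, had the smallest p. The highest difference of the 26 was 0.96, and in 1 member every LAT KO array lay above every WT array. Ifnar1 and Ifnar2, the type I receptor chains, had differences of 0.16 and 0.04, and Ifnb1 of -0.12. Of 18 genes of MHC class I presentation 0 were called, while all 18 had a positive difference with a median of 0.11, beside 34.2% positive over all autosomal genes. H2-M3, Tapbpl and Tap1 had the smallest p of that list, with differences of 0.48, 0.51 and 0.51 and overlapping groups.

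Of 38 TCR-induced immediate early genes, 10 fell and 0 rose: Nr4a1, Irf4, Egr2, Egr1, Egr3, Nr4a3, Fos, Nab2, Cd83 and Dusp6. With slide as a fixed block, and without the 2 arrays of contradicted sex label, 5 fell. Without 1 array the falls were 5 (LAT KO replicate 2 of either time), 6 (LAT KO replicates 1 or 3, WT replicates 1 or 2, of 4 weeks) and 7 or more for the others. The list's median was -0.32, with 31 differences negative, beside 34.2% positive over all autosomal genes. In 11 members every measured LAT KO array lay below every WT array, beside 0.451% of all autosomal genes. The fall was uneven. Fosb (-0.58), Myc (-0.56), Cd69 (-0.39), Junb (-0.24), Ier2 (-0.26) and Nr4a2 (-0.28) were not called, Jun (0.30), Klf6 (0.27) and Btg2 (0.58) had positive differences, and the NF-kB targets Nfkbia and Tnfaip3 had 0.01 and -0.03. By array, the list's mean deviation was -0.53 to -0.02 in LAT KO and 0.16 to 0.37 in WT, with LAT KO replicate 1 of 1 week nearest to WT.

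The list of regulatory T cell genes (21 autosomal members, without the X-linked Foxp3) had 3 falls, Tnfrsf9, Cd83 and Gpr83, and a median of -0.39. These calls were lost in part or whole in many alternatives: 0 fell with slide as a fixed block, 1 without the 2 arrays of contradicted sex label, and 0 to 3 without 1 array, with 0 for LAT KO replicate 2 of either time and WT replicates 1 and 2 of 4 weeks, and 1 for LAT KO replicate 3 of either time and WT replicate 2 of 1 week. Ctla4 (-0.66), Icos (-0.37), Il2ra (-0.35) and Ikzf2 (-0.17) were not called. The groups overlapped on this list: LAT KO arrays ranged from -0.71 to 0.30 and WT arrays from -0.02 to 0.62. In sorted cells measured in bulk, fewer cells of a type and less RNA per cell cannot be told apart. The 3 called falls among 18 genes of inhibitory receptors and anergy were Nr4a1, Egr2 and Egr3, already in the immediate early list. Other members of the inhibitory list, Lag3 (-1.16), Ctla4 and Cd200 (-1.12), were not called. Pdcd1, which encodes PD-1, had a difference of 0.02. Of 21 genes on the list of TCR-induced cytokines and TNF ligands, which also holds receptors, only the receptor gene Tnfrsf9 fell.

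Components of the receptor machinery had small differences. Among 37 genes for the TCR complex and its proximal kinases and adaptors 0 were called and the median was 0.06. Cd4 (0.01), Cd3e (-0.07), Lck (0.15), Zap70 (-0.10), Lcp2 (-0.05) and Plcg1 (0.10) illustrate the list, and its smallest p belonged to Tec (0.57) and Malt1 (-0.50). Of 35 negative regulators, Dusp6 and Ptpn6 fell and 33 were not called, with a median of -0.05. Neither was called with slide as a fixed block, without the 2 arrays of contradicted sex label, or without any 1 array other than LAT KO replicate 1 of 1 week, WT replicate 2 of 1 week or WT replicate 3 of 4 weeks. The naive T cell programme (29 genes, median -0.02), the calcium and NFAT genes (23, median 0.10) and the NF-kB subunits and inhibitors (14, median -0.05) each had 0 calls. Of 42 proliferation genes 0 were called. Their differences were negative for 39 with a median of -0.16. Over all autosomal genes 34.2% of differences were positive, and the median over all features was -0.09. No proliferation gene had all LAT KO arrays on one side. In all, 6 of the 24 pathway lists held a called gene.

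**Figure D4:**
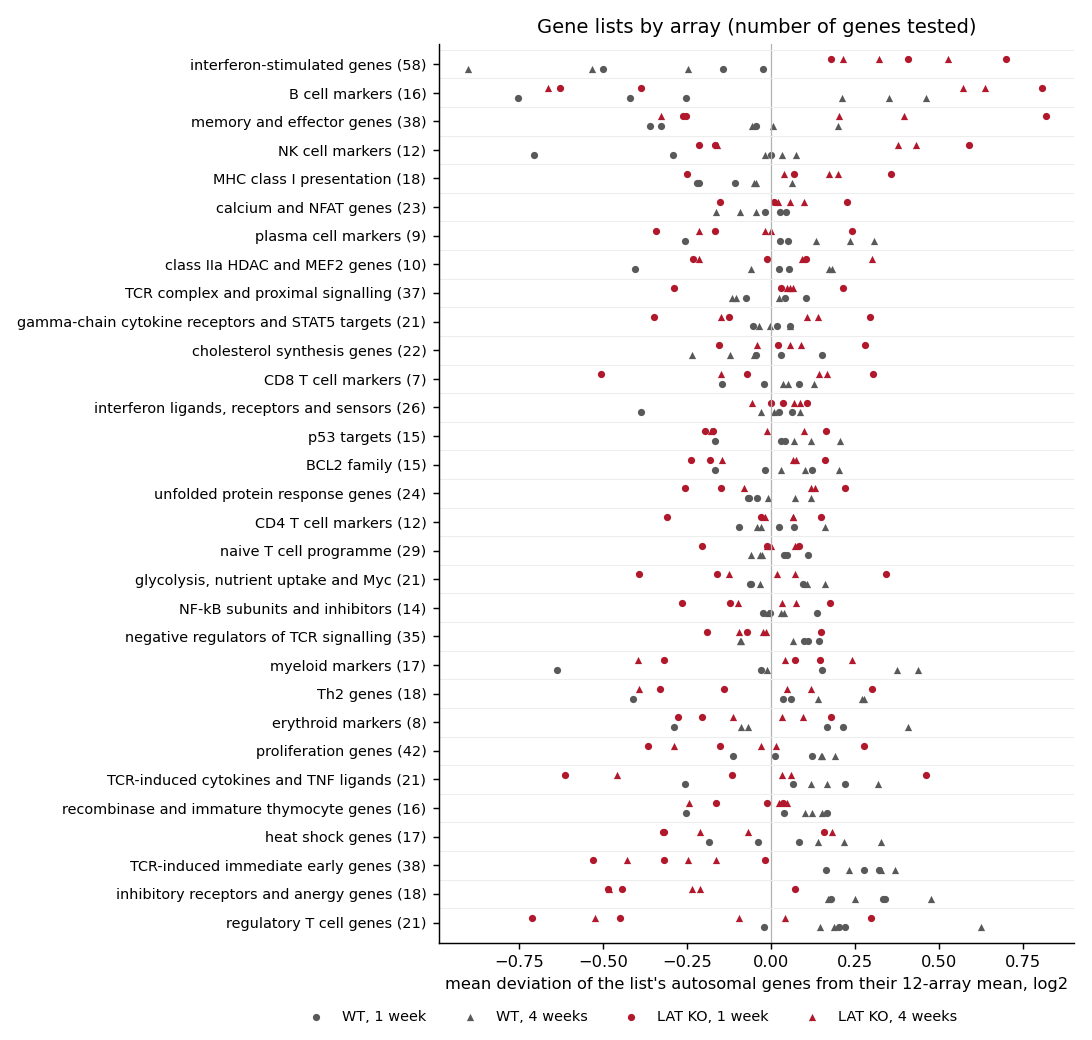
Mean deviation of the autosomal genes of each list from their 12-array mean (x axis, log2) by array, for 24 pathway lists and 7 marker lists (y axis, number of genes tested in brackets, ordered by median difference); WT is grey, LAT KO red, circles 1 week and triangles 4 weeks. LAT KO and WT points are apart for interferon-stimulated genes (0.18 to 0.70 against -0.90 to -0.02), immediate early genes and inhibitory receptor and anergy genes. B cell markers vary within both genotypes, and in WT their 1-week points lie below their 4-week points.

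Markers of other cell types varied between arrays of both genotypes. The mean deviation of 16 B cell markers was -0.66 to 0.81 in LAT KO and -0.75 to 0.46 in WT, and that of 12 NK cell markers -0.22 to 0.59 and -0.71 to 0.07. In WT the B cell values were -0.75 to -0.25 at 1 week and 0.21 to 0.46 at 4 weeks. In LAT KO they were 0.81, -0.63 and -0.39 at 1 week and 0.64, -0.66 and 0.57 at 4 weeks. The values 0.81 and -0.66 belong to the 2 arrays of contradicted sex label. The summed linear signal of the B cell markers, relative to the 75th percentile of the array, was at most 41.2 in LAT KO and 22.5 in WT, against 170 to 204 and 190 to 219 for the 12 CD4 T cell markers. Of the B cell markers 15 of 16, and of the NK markers 11 of 12, were well above background on all 12 arrays, so neither cell type's markers were absent. The 3 arrays highest in B cell markers were LAT KO replicate 1 of 1 week and replicates 1 and 3 of 4 weeks, which were also the highest in NK markers and in Gzma. Gzma, a granzyme of NK and effector cells, was -2.78 to 0.48 in LAT KO (median -1.95) and -4.56 to -3.31 in WT (median -4.21). Its difference of 2.36 exceeded every called rise and had a limma adjusted p of 0.0514. The interferon-stimulated list was highest in LAT KO replicate 2 of each time, which were among the lowest in B cell markers. By their sex-linked transcripts these were also the only female LAT KO arrays. The part of other cell types, or of sex as read from transcripts, in the called differences was not tested. Among 38 memory and effector genes 0 were called (median 0.12), and Cd44, the marker of the sort, had a difference of 0.01.

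The LAT KO difference was then compared between times. Limma called 0 of 16376 autosomal genes for a change between 1 and 4 weeks, with 496 (3.03%) at an unadjusted p under 0.05. 13 of the 17 rises and 10 of the 20 falls were larger at 4 weeks. The median of the rises was 0.96 at 1 week and 1.26 at 4 weeks, and that of the falls -1.28 and -1.30. As these genes were called on the pooled arrays, an equal direction at both times was fixed by that choice. Slco3a1 had the smallest interaction p of the 37 (0.0143 by limma, unadjusted, and not past adjustment). Its difference was 0.60 at 1 week and 1.26 at 4 weeks. Egr1 was -2.32 at 1 week and -1.70 at 4 weeks, and Irf4 was -2.02 and -2.12. These values follow the time labels, and 1 LAT KO array of each time is among the 2 with a contradicted sex label. By label every female mouse of these genotypes was of 1 week, so time and sex were partly confounded. By the sex-linked transcripts the female arrays were WT replicates 1 and 2 of 1 week and LAT KO replicate 2 of each time. The share of females thus changed between times in WT only.

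**Figure D5:**
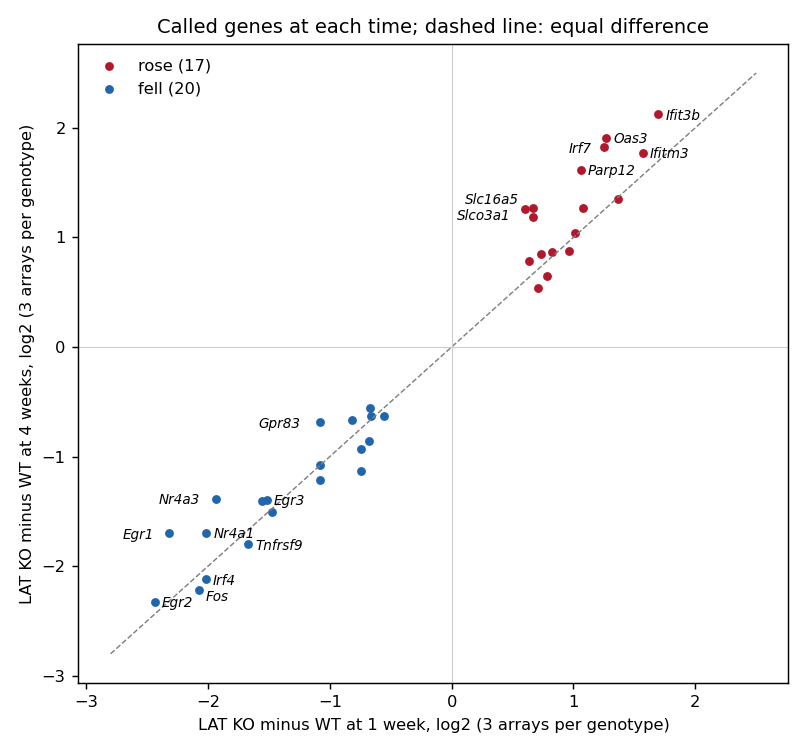
Log2 difference between LAT KO and WT at 1 week (x axis) and at 4 weeks (y axis), 3 arrays per genotype and time, for the 17 called rises (red) and 20 called falls (blue); the dashed line marks equal differences. Slco3a1 and Slc16a5 lie above the line, and 13 of the 17 rises and 10 of the 20 falls were larger at 4 weeks. Each gene has the same sign at both times, which is fixed because its LAT KO and WT arrays do not overlap.

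The Y136F mice, whose LAT lacks the tyrosine that binds phospholipase C-gamma, were set against the same WT arrays, so the comparisons share controls and no overlap was computed. For Nr4a1 the Y136F difference from WT was -1.60 at 1 week and -0.49 at 4 weeks, beside -2.02 and -1.70 for LAT KO. Egr2 had -1.56 and -0.16 in Y136F, beside -2.44 and -2.33 in LAT KO. For Irf4 the values were -1.59 and -1.05 beside -2.02 and -2.12. Ifitm3 had 1.60 and 2.44 in Y136F, beside 1.57 and 1.77 in LAT KO. By the titles the Y136F mice were ERCre+ LAT f/m, against ERCre- in WT. All Y136F mice were labelled female and all WT mice of 4 weeks male, so at 4 weeks an effect of sex cannot be told apart from these differences. The difference between the alleles was not tested here.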

How the data were processed

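Arrays were single-colour (Cy3) Agilent mouse arrays on 5 slides, each array with the RNA of 1 mouse. The deposited spot intensity was background-corrected by the authors with Feature Extraction 10.5.1.1, per the file headers; the submitters' processing notes name version 10.5 and, for the analysis, limma. A value table deposited for the whole series holds the authors' log2 values (column medians 8.56 to 8.57; their background correction and normalization are not given in the sources used here) and served as an alternative.

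The processed intensity was log2-transformed, each array's 75th percentile over 43379 non-control spots was subtracted, spots flagged as outliers were left out and spots of a probe were averaged (245 of 41174 probes have several). Accessions matched to RefSeq entries (GRCm38.p6) named 24836 probes of 17174 genes; 16338 stayed unnamed. The brightest probe per gene was used if well above background on at least 3 arrays. Limma (version 3.58.1, R 4.3.3) tested each difference, 6 LAT KO against 6 WT arrays, intensity trend on, 10 residual and 4.88 prior degrees of freedom, two-sided, Benjamini-Hochberg adjustment over all 32302 features, threshold 0.05. A second limma fit with 4 group means tested the change between times. Tests of Lat alone were exact permutations over 462 splits (924 with the outlier spot kept). The number of arrays limits the precision, and the fit was tested on simulated data.

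Named genes are Lat, Nr4a1, Irf4, the 15 largest called rises and 15 largest called falls whose arrays do not overlap, and in each of 24 pathway and 7 marker lists the members with the smallest p; other list members are named as examples after their values were seen. The comparison, the lists and most alternatives were chosen with earlier results of these data known. Replicate numbers were not taken to pair the mice: the deviations of same-numbered mice correlated above 0.1 in 3 of 6 pairs, not in all. Alternatives were other background correction, normalization, filters and probe rules, all 18 arrays, array weights, and arrays left out. Others added terms for weeks, sex as labelled, slide or detection. No alternative used sex as read from the transcripts. The planned normexp correction on mean intensity used median intensity with an offset of 50.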

Additional observations from a re-analysis of the deposited data

Results flagged for a closer look

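Dixon's gap test within the 6 arrays of each genotype marked 7 of 124 groups, and chance alone marks about 1 in 20. Irf7 in LAT KO replicate 2 of 1 week was at 3.47, above the other LAT KO arrays, the lowest of which was at 2.74. For the mean deviation of gene lists, LAT KO replicate 3 of 1 week lay low at -0.29 for the TCR complex and proximal signalling (others 0.03 to 0.21) and at -0.21 for the naive T cell programme (others -0.01 to 0.08). This array also had the 7888 outlier spots. WT replicate 1 of 1 week lay low at -0.39 for interferon ligands, receptors and sensors (others -0.03 to 0.08), at -0.41 for Th2 genes (others 0.03 to 0.28) and at -0.25 for recombinase and immature thymocyte genes (others 0.04 to 0.17). It was the array with the lowest share of spots well above background, 84.2%, and the only one of the 12 on its slide. WT replicate 1 of 4 weeks lay high at 0.62 for regulatory T cell genes (others -0.02 to 0.22).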

How the results depend on the processing

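The count of 37 called autosomal genes moved by over 1.5 times under 6 alternatives besides the leaving-out of single arrays: 71 with all 18 arrays in 1 fit (36 of the 37 among them), 78 with array weights, 15 without the intensity trend, 6 with slide as a fixed block, 6 without the 2 arrays of contradicted sex label, and 15 without slide 1, an alternative chosen after seeing the data. The change between times was called for 0 genes in each analysis run but 1, array weights, which called Olfr1026. Leaving out 1 array at a time gave 10 to 36 calls. Other settings gave 29 (quantile normalization) to 46 (detection as a term, chosen after seeing the data); the share of rises was 45.9%, 55.6% in the series matrix values and 62.0% with all 18 arrays, but 3 of 15 calls without the trend, 16.7% with slide as a fixed block and 0 of 6 calls without the 2 arrays of contradicted sex label. Deviations of same-numbered mice correlated at 0.43, 0.45 and 0.25 in 3 pairs and at -0.07 to 0.05 in the other 3, and a replicate block gave 37 calls, 24 of them among the 37. Over 33 alternatives no called gene changed direction, which the separation of the groups largely fixes, and 864 of 1219 gene-by-setting tests passed. Lat was not called in any alternative run. Dim probes such as those of Fos and Nr4a3 limit the size of their falls.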
